A study of Homo sapiens with 8 samples.

Results

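The nuclear genes of oxidative phosphorylation were taken from the count table by symbol. The rule took every symbol that begins with NDUF, UQCR, ATP5 or COX followed by 4 to 8, the SDHA to SDHD genes, CYC1 and CYCS. It found 98 of 23368 symbols, and 91 of these had enough reads to be tested. They hold 37 subunits of complex I, 5 assembly factors of complex I, 4 subunits of complex II, 10 symbols of complex III, cytochrome c (CYCS), 19 symbols of complex IV, 17 of complex V and 5 other symbols. The other symbols are the pseudogenes ATP5EP2 and UQCRBP1, the readthrough symbols NDUFC2-KCTD14 and ATP5J2-PTCD1, and COX4NB, whose product belongs to a protein complex of the endoplasmic reticulum and not to the respiratory chain.

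RNA was sequenced from HEK293F cells, a human embryonic kidney line, with 3 levels of MOV10, an RNA helicase that binds Argonaute and the fragile X protein. The control group was 3 libraries of cells given an irrelevant siRNA, and the knockdown group was 2 libraries of cells given siRNA against MOV10, in both cases 3 times and 24 h apart. The overexpression group was 3 libraries of cells transfected once with a plasmid for myc-tagged MOV10. No empty-plasmid library was used here, so the comparison of overexpression with control also holds the plasmid and the irrelevant siRNA. Whether replicates were grown as separate cultures is not labelled, so a p-value reflects only how far these libraries differ from each other, and that spread may be technical.

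Complexes I to IV pass electrons from NADH and succinate to oxygen and, except for complex II, pump protons across the inner mitochondrial membrane. Complex V, the ATP synthase, lets the protons flow back and makes ATP. Most of the subunits are encoded in the nucleus, translated in the cytosol and imported, while the mitochondrial genome encodes a small set of core subunits. Complex I has core subunits that carry the flavin and the iron-sulfur clusters, and many accessory subunits around them. Transcripts of the mitochondrial genome were not analysed here.

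Library totals ran from 12.7 M to 32.8 M counts, with overexpression replicate 3 the shallowest and knockdown replicate 2 the deepest. Levels are given as CPM, the count of a gene scaled to its library's total multiplied by a TMM factor, edgeR's correction for differences in RNA composition. MOV10 stood at 76.8, 76.4 and 91.2 CPM in control, at 2971, 2916 and 2454 CPM with overexpression and at 50.6 and 55.5 CPM with knockdown. The knockdown therefore left 0.651 of the control MOV10 mRNA. All 8 markers of the line ran from 7.44 to 1095 CPM over the libraries, and 8 of 9 markers of other cells stayed under 1 CPM in every library. The ninth, the collagen gene COL1A1, ran from 39.6 to 62.7 CPM, and its partner chain COL1A2 did not exceed 0.0443 CPM. In bulk RNA, fewer cells holding a transcript and less of it per cell cannot be told apart.

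In control cells all 5 complexes were well expressed, and the alternative forms known from muscle or testis were at or near 0. Levels between genes are given here as RPKM, the CPM divided by transcript length in kilobases, with the median length of a gene's GENCODE transcripts that match RefSeq, which makes them approximate. Complex I ran from 10.2 RPKM for NDUFA9 to 239 RPKM for NDUFB10, and complex II from 85.3 RPKM for SDHA, the flavoprotein, to 135 RPKM for SDHC, a membrane anchor. Complex III ran from 26.1 RPKM for UQCRB to 260 RPKM for UQCRQ. In complex IV the highest was COX8A with 233 RPKM. In complex V the highest was ATP5B, the catalytic beta subunit, with 481 RPKM. The lowest was ATP5E, the epsilon subunit, with 1.17 RPKM, but its reads may be shared with the pseudogene ATP5EP2, which stood at 656 RPKM. CYCS, the carrier between complexes III and IV, stood at 66.7 RPKM. The assembly factors ran from 14.3 RPKM for NDUFAF1 to 89.9 RPKM for NDUFAF3.

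Complex IV holds most of the pairs of alternative forms. COX4I1, the common form of subunit 4, stood at 226 RPKM in control, and COX4I2, its hypoxia and lung form, had no read in any library. COX7A1, the heart and muscle form of subunit 7a, and the readthrough symbol ATP5J2-PTCD1 also had no read in the 8 libraries, which allows up to 0.0180 CPM over all of them, for counting error only. COX6A2, the muscle form of subunit 6a, had 1 read in all, the testis form COX7B2 had 2, the testis form COX8C had 29 and NDUFC2-KCTD14 had 3. These 7 symbols were left out by the count filter. The common partners COX6A1, COX7A2, COX7B and COX8A stood at 147, 109, 187 and 233 RPKM. COX6B2, the testis form of subunit 6b, passed the filter at 0.441 RPKM beside 187 RPKM for COX6B1. NDUFA4L2, a hypoxia-induced relative of NDUFA4, passed it at 0.254 RPKM beside 22.8 RPKM for NDUFA4.

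Several members have near-identical copies, so their reads may be shared between symbols. These are ATP5E with ATP5EP2, UQCRH with UQCRHL, UQCRB with UQCRBP1, ATP5L with ATP5L2, and ATP5G1, ATP5G2 and ATP5G3, which encode the same mature subunit c. Their values are uncertain for that reason. The strand setting of the counting is not given in the sources used here, so reads from antisense or overlapping genes cannot be told apart either.

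Promoters of these genes are known for sites of NRF1, of ETS factors such as GABP, of YY1 and of CREB. RefSeq windows on GRCh38.p14, from 250 bases before to 50 after the gene start, were at hand for 76 of the 98 members. GCGCANGCGC, the NRF1 motif, was found on either strand in 16 of 76 windows (21.1%), against 11.1% of the windows of genes tested and 6.28% of all 27305 windows. CCGGAAG, the ETS motif, was in 21 (27.6%, against 17.9% and 10.7%), and AAGATGGC, the YY1 motif, in 11 (14.5%, against 5.02% and 3.03%). TGACGTCA, the CREB motif, which reads the same on both strands, was in 5 (6.58%, against 3.17% and 1.98%). CCAAT, searched beside them, was in 27 (35.5%), against 36.6% and 35.7%. None of these motifs contains another. In all, 42 of the 76 windows held at least 1 of the first 4 motifs. The windows were not matched for base composition. A match describes letters in a window and not a bound site.

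The 120 bases before the start are shown for 9 members, the 3 with the smallest adjusted p and a window among those lower with overexpression, higher with knockdown and lower with knockdown. ATP5E was passed over because its reads may be shared. They show how the clearest calls compare in sequence, with matches to the first 4 motifs on either strand in capitals. The first 3 members were lower with MOV10 overexpression.

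NDUFB2 (chr7:140696588-140696707, plus strand): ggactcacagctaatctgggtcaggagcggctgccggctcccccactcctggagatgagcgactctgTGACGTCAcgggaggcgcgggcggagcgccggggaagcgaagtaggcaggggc
NDUFS6 (chr5:1801287-1801406, plus strand): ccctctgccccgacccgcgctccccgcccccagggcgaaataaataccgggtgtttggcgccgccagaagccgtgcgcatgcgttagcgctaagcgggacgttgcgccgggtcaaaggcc
ATP5SL (chr19:41439538-41439657, minus strand): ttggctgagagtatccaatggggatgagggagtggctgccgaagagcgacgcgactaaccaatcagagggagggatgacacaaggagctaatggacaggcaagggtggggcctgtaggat

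NDUFB2 holds the CREB motif, and NDUFS6 and ATP5SL hold none of the 4 in these bases. The next 3 members were higher with MOV10 knockdown.

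UQCR10 (chr22:29767249-29767368, plus strand): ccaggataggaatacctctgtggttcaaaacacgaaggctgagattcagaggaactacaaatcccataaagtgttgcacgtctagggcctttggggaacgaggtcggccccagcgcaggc
COX6A1 (chr12:120437993-120438112, plus strand): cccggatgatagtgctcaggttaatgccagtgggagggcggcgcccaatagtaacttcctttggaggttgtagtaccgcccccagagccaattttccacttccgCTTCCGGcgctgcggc
ATP5O (chr21:33915805-33915924, minus strand): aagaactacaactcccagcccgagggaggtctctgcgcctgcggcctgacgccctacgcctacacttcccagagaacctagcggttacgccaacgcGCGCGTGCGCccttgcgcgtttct

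COX6A1 holds 1 ETS motif, ATP5O holds 1 NRF1 motif and UQCR10 holds none. The last 3 members were lower with MOV10 knockdown.

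COX7A2L (chr2:42361218-42361337, minus strand): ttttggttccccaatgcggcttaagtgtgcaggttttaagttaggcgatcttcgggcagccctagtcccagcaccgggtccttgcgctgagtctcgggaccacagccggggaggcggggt
UQCRFS1 (chr19:29213152-29213271, minus strand): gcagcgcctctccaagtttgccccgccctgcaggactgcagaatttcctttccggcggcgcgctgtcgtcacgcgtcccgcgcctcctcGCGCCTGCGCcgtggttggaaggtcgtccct
UQCRC2 (chr16:21953241-21953360, plus strand): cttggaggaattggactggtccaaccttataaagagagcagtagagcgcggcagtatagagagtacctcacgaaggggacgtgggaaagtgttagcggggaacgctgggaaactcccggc

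UQCRFS1 holds 1 NRF1 motif, and COX7A2L and UQCRC2 hold none. Of the 9 members, 4 thus hold a motif in these 120 bases and 5 hold none there, and within each set of 3 no motif is shared. The counts that follow are over the whole windows of 300 bases. The NRF1, ETS, YY1 and CREB motifs were in 16, 21, 11 and 5 of all 76 windows. Among members with a window, they were in 4, 7, 2 and 1 of the 20 lower with overexpression, and in 0, 0, 1 and 0 of the 4 higher. With knockdown they were in 3, 4, 5 and 1 of the 15 higher members with a window and in 2, 0, 0 and 1 of the 6 lower ones. These counts were not tested.

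With MOV10 overexpression more of the nuclear oxidative phosphorylation genes fell than rose, most of them in complex I, and the changes were small. In the quasi-likelihood test of edgeR, adjusted by Benjamini-Hochberg over 15254 genes, 28 of the 91 members tested fell and 5 rose. Members were thus called lower in 30.8% and higher in 5.49%, beside 24% and 25.1% of all genes tested. The members' share of lower calls was close to the background, and their share of higher calls was below it. The median log2 fold change was -0.08 over the members and 0.01 over all genes, and the median size of a called change in the members was 0.23. With library totals in place of TMM scaling, the split was 10 higher and 19 lower, with 29.6% and 19.6% of all genes, so the split depends on the scaling. Without control replicate 1 the count of lower members was 16, while 19.5% of all genes were lower in that fit.

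Complex I, which oxidises NADH, is the largest class, with 37 of the 91 members tested, and held most of these calls. Of its subunits 16 fell (43.2%) and 3 rose (8.11%), beside 30.8% and 5.49% of all members and 24% and 25.1% of all genes. The median log2 fold change was -0.14. The count of lower subunits without 1 library ran from 10, without control replicate 1, to 19, without overexpression replicate 2. In those fits 19.5% and 24% of all genes were lower. With library totals the split was 12 lower and 5 higher. The core subunits gave 3 lower and 1 higher of 7, and the accessory subunits 13 lower and 2 higher of 30.

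NDUFB2, an accessory subunit of the membrane arm, stood at 88.2, 84.1 and 82.4 CPM in control and at 61.4, 63.1 and 59.9 CPM with overexpression, beside 94.6 and 83.7 CPM with knockdown. Its groups did not overlap between overexpression and either of the others. It fell by 0.47 ± 0.06 (SE) on the log2 scale, to 0.724 of control (edgeR, adjusted p = 1.56e-06).

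NDUFS6, a zinc-binding accessory subunit of the matrix arm, stood at 114, 115 and 112 CPM in control and at 82.7, 92.2 and 85 CPM with overexpression. All 3 overexpression libraries lay below all control libraries. It fell by 0.39 ± 0.05 on the log2 scale (edgeR, adjusted p = 5.93e-06). With knockdown it stood at 118 and 110 CPM, which overlapped the control.

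NDUFS3 is a core subunit of the module of complex I that reduces ubiquinone. It stood at 95.3, 89.5 and 92.2 CPM in control and at 76.8, 77.4 and 70.9 CPM with overexpression, and it fell by 0.30 ± 0.05 (edgeR, adjusted p = 0.000119). Its groups did not overlap. NDUFS8, which carries iron-sulfur clusters, fell by 0.23 ± 0.07, from 79.2, 77.8 and 79.1 CPM to 65.6, 76.1 and 58.7 CPM (edgeR, adjusted p = 0.00877).

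Among the other accessory subunits, NDUFA8 fell by 0.30 ± 0.07 (adjusted p = 0.000757), NDUFB8 by 0.24 ± 0.05 (0.000541), NDUFS5 by 0.23 ± 0.05 (0.00069) and NDUFB11 by 0.21 ± 0.06 (0.00432), all in edgeR's test. The calls of these 4 and of NDUFB2, NDUFS6, NDUFS3 and NDUFS8 held with any library left out. Of the 16 lower calls 9 held in this way and 7 did not. NDUFA12, NDUFC2, NDUFA11, NDUFA1 and NDUFB9 lost their call without control replicate 1 (edgeR adjusted p of 0.0927, 0.0573, 0.0908, 0.134 and 0.352). NDUFB10 and NDUFAB1 lost it without control replicate 3 (0.0896 and 0.0625). All but NDUFA12 also lost it without 1 to 5 further libraries.

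The 3 complex I subunits that rose were NDUFS7, NDUFB5 and NDUFA5. NDUFS7, the core subunit with the last iron-sulfur cluster before ubiquinone, stood at 32.2, 30.5 and 29.7 CPM in control and at 37.2, 42.6 and 33.4 CPM with overexpression. It rose by 0.30 ± 0.08 (edgeR, adjusted p = 0.00292), and its groups did not overlap. NDUFB5 stood at 64.5, 63 and 59.2 CPM in control and at 76.6, 74.8 and 77.8 CPM with overexpression, and it rose by 0.29 ± 0.05 (adjusted p = 0.000121). NDUFA5 rose by 0.23 ± 0.06 (adjusted p = 0.00297).

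Assembly factors of complex I went both ways. ATP5SL, named after an ATP synthase gene but known as an assembly factor of the distal membrane arm of complex I (DMAC2), stood at 75.9, 74.8 and 72.7 CPM in control and at 57.1, 59.4 and 53.2 CPM with overexpression. It fell by 0.39 ± 0.05 (edgeR, adjusted p = 6.54e-06) with no overlap. NDUFAF2, a chaperone of a late assembly stage, rose by 0.26 ± 0.08, from 13.4, 13.8 and 14.2 CPM to 16.9, 16.3 and 16.2 CPM (adjusted p = 0.00873). NDUFAF4 was lower by a log2 fold change of -0.17 ± 0.06 with overlapping groups (adjusted p = 0.0262), and the call was lost without overexpression replicate 1 (0.0721), overexpression replicate 2 (0.124), control replicate 1 (0.117) or control replicate 2 (0.0952).

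Complexes II and III changed little with overexpression. In complex II, SDHC was lower at 63.4, 60.8 and 59.9 CPM against 70.2, 67.1 and 71.5 CPM, with a log2 fold change of -0.18 ± 0.06 (edgeR, adjusted p = 0.0147), but the call was lost without control replicate 1 (0.0613) or control replicate 3 (0.0549). SDHA, SDHB and SDHD had fold changes of -0.05 to 0.06 and did not pass the test. In complex III only UQCR11, a small membrane subunit, passed of the 10 tested. It fell by 0.20 ± 0.05, from 106, 103 and 105 CPM to 90.7, 96.7 and 84.3 CPM (adjusted p = 0.00338). CYCS stood at 287, 275 and 259 CPM in control and at 294, 277 and 321 CPM with overexpression, which overlapped (log2 fold change 0.12 ± 0.05, adjusted p = 0.0731).

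In complex IV, which reduces oxygen, 3 of 14 symbols tested were called lower (21.4%) and 1 higher (7.14%), beside 24% and 25.1% of all genes. COX6B1, a subunit that faces the intermembrane space, stood at 127, 125 and 122 CPM in control and at 111, 108 and 91.4 CPM with overexpression. It fell by 0.27 ± 0.06 (edgeR, adjusted p = 0.000882) with no overlap. COX5B and COX7C had log2 fold changes of -0.15 ± 0.06 and -0.18 ± 0.07 with overlapping groups (adjusted p = 0.045 and 0.0453). Leaving out control replicate 1 ended both calls (0.116 and 0.261), as did leaving out any of 6 and of 4 further libraries. COX6B2 was higher, on 12 to 40 reads with overexpression against 12 to 16 in control, and its call was lost without overexpression replicate 2 (0.181), control replicate 1 (0.0607) or control replicate 2 (0.0722). With library totals complex IV had 2 higher and 1 lower, beside 29.6% and 19.6% of all genes.

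In complex V 5 of 17 symbols fell (29.4%), beside 24% of all genes, and the other 12 did not pass the test. The share called higher was thus 0, beside 25.1% of all genes. With library totals 4 fell, beside 19.6% of all genes. ATP5J2, the f subunit of the membrane sector, stood at 50.6, 41.7 and 47.3 CPM in control and at 37.6, 34.2 and 34.1 CPM with overexpression, and it fell by 0.40 ± 0.07 (edgeR, adjusted p = 0.000105). ATP5D, the delta subunit of the F1 stalk, stood at 57.1, 56.4 and 56.9 CPM in control and at 43.6, 52.7 and 40.2 CPM with overexpression. It fell by 0.31 ± 0.08 (adjusted p = 0.00225). ATP5B, the catalytic subunit, stood at 887, 876 and 890 CPM in control and at 793, 810 and 776 CPM with overexpression, and it fell by 0.16 ± 0.04 (adjusted p = 0.00287). None of these 3 overlapped, and each held its call without any library. ATP5J and ATP5F1, both of the peripheral stalk, lost theirs without control replicate 1 (0.0616 and 0.199) or control replicate 2 (0.0541 and 0.0949).

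**Figure D1:**
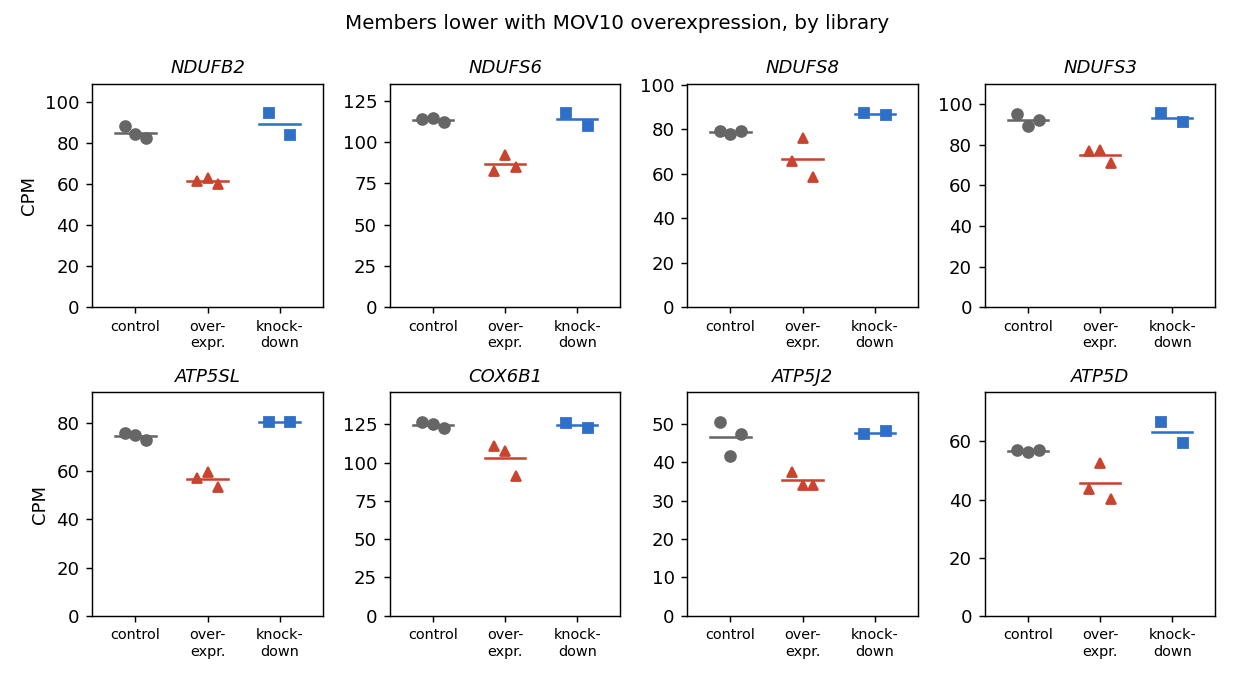
Levels in CPM (linear axis from 0) of 8 members with lower mRNA after MOV10 overexpression, 1 point per library and a line at the group mean. The 3 overexpression libraries lie below every control and knockdown library in each panel, as for NDUFB2 at 59.9 to 63.1 CPM against 82.4 CPM or more.

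The subunit c genes ATP5G1, ATP5G2 and ATP5G3 did not pass the test with overexpression. ATP5G1 stood at 41.1, 35.7 and 39.3 CPM in control and at 34.7, 36.5 and 21.5 CPM with overexpression. The value of overexpression replicate 3 was the lowest of all 8 libraries, and the groups overlapped through replicate 2. Its log2 fold change was -0.29 ± 0.13 (edgeR, adjusted p = 0.0723).

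With MOV10 knockdown more members rose than fell. In the same edgeR fit 19 of the 91 members rose and 7 fell, which is 20.9% and 7.69% of the members beside 19.9% and 19% of all genes tested. The share of higher calls was thus near the background and the share of lower calls was below it. The median log2 fold change was 0.06 over the members and -0.00 over all genes. With library totals the split was 12 higher and 9 lower and the members' median 0.01, beside 15.4% and 23.7% of all genes. The comparisons with control share the 3 control libraries, so their values are given side by side and not correlated. The count of higher members was 18, 10 and 11 without control replicates 1, 2 and 3, beside 16.4%, 15.8% and 15.7% of all genes. Without overexpression replicates 1, 2 and 3 it was 14, 26 and 28, beside 18.2%, 22.1% and 24.7%. Leaving out knockdown replicate 2 or 3 left 1 knockdown library, and the members' median was then 0.04 or 0.07.

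The members that fell with knockdown include 2 subunits of complex III and a protein of its supercomplexes. COX7A2L, also called SCAF1, belongs to the COX7A family by sequence and links complexes III and IV in supercomplexes. It stood at 100, 102 and 103 CPM in control, at 99.9, 99.2 and 101 CPM with overexpression and at 73.6 and 68.5 CPM with knockdown. Both knockdown libraries lay below all 6 others. It fell by 0.51 ± 0.06 on the log2 scale, to 0.7 of control (edgeR, adjusted p = 5.47e-07).

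UQCRFS1, the Rieske iron-sulfur protein of complex III, stood at 116, 111 and 115 CPM in control, at 113 CPM in each overexpression library and at 86.5 and 87.9 CPM with knockdown. It fell by 0.38 ± 0.05 (edgeR, adjusted p = 1.12e-05). UQCRC2, a large matrix-side subunit of complex III, stood at 162, 159 and 168 CPM in control, at 167, 181 and 178 CPM with overexpression and at 127 and 135 CPM with knockdown. It fell by 0.32 ± 0.06 (adjusted p = 0.000141). For both, the knockdown libraries lay below all others, while overexpression and control overlapped.

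NDUFA10, an accessory subunit of the membrane arm of complex I, stood at 94.3, 92.9 and 96 CPM in control, at 92.6, 96.6 and 91 CPM with overexpression and at 75.2 and 79.2 CPM with knockdown. It fell by 0.29 ± 0.06 (edgeR, adjusted p = 0.000353). ATP5S, known as coupling factor B of the ATP synthase, fell by 0.30 ± 0.08, from 19.4, 21.2 and 20.7 CPM to 16.9 and 16.2 CPM (adjusted p = 0.00678). These 5 calls held with any library left out.

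ATP5E, the epsilon subunit of F1, was lower with knockdown by a log2 fold change of -1.38 ± 0.23 (edgeR, adjusted p = 9.29e-05). It had 121, 91 and 41 reads in control and 51 and 34 with knockdown, or 5.36, 4.71 and 2.74 CPM against 1.62 and 1.81 CPM. The pseudogene ATP5EP2, which is nearly the same sequence, stood at 83.9 to 117 CPM over the 8 libraries. It was higher with knockdown by a log2 fold change of 0.18 ± 0.06 (adjusted p = 0.033), a call lost without knockdown replicate 2 (0.198), knockdown replicate 3 (0.0864), overexpression replicate 1 (0.0509), control replicate 2 (0.126) or control replicate 3 (0.0783). How the reads were divided between these symbols was not tested.

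Other subunits of the same complexes rose with knockdown. UQCR10, a small membrane subunit of complex III, stood at 94.8, 84.3 and 94.8 CPM in control and at 116 and 120 CPM with knockdown, and it rose by 0.37 ± 0.06 (edgeR, adjusted p = 7.36e-05). COX6A1, a subunit of complex IV, stood at 89.5, 77.8 and 85.2 CPM in control and at 112 and 108 CPM with knockdown. It rose by 0.38 ± 0.06 (adjusted p = 8.69e-05). Neither gene's knockdown libraries overlapped the control, and the overexpression libraries of both did, at 91.5 to 99 CPM and 75.3 to 84.9 CPM. UQCRB, which is prone to shared reads with UQCRBP1, was higher by 0.17 ± 0.06 (adjusted p = 0.0188), a call lost without any of knockdown replicate 2 (0.154), knockdown replicate 3 (0.0621), control replicate 2 (0.0926) and control replicate 3 (0.0664). COX7A2, the common form of subunit 7a, was higher by 0.20 ± 0.06 (adjusted p = 0.0113), a call lost without knockdown replicate 2 (0.128), control replicate 2 (0.0623) or control replicate 3 (0.0571).

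Complex II, which is also an enzyme of the citric acid cycle, had 2 of 4 subunits higher, beside 19.9% of all genes. SDHA stood at 199, 189 and 193 CPM in control and at 225 and 228 CPM with knockdown, and it rose by 0.22 ± 0.05 (edgeR, adjusted p = 0.00128) with no overlap. SDHB was higher by 0.15 ± 0.05 (adjusted p = 0.0329), a call lost without knockdown replicate 2 (0.285), knockdown replicate 3 (0.0605), overexpression replicate 1 (0.0579), control replicate 2 (0.133) or control replicate 3 (0.0938). CYCS rose by 0.22 ± 0.06, from 287, 275 and 259 CPM to 321 and 316 CPM (adjusted p = 0.00521), and lost the call without knockdown replicate 2 (0.0719).

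In complex V 4 of 17 symbols rose (23.5%) and 2 fell (11.8%), beside 19.9% and 19% of all genes. ATP5O, the stalk subunit that binds F1 (OSCP), stood at 165, 166 and 165 CPM in control, at 162, 169 and 164 CPM with overexpression and at 200 and 190 CPM with knockdown. It rose by 0.24 ± 0.05 (edgeR, adjusted p = 0.000839), and the knockdown libraries lay above all others. ATP5G2, a gene for subunit c, rose by 0.24 ± 0.06, from 133, 131 and 139 CPM to 158 CPM in both knockdown libraries (adjusted p = 0.00335). The other genes for subunit c, ATP5G1 and ATP5G3, had log2 fold changes of 0.06 ± 0.14 and 0.03 ± 0.05 and did not pass. ATP5F1, subunit b of the stalk, rose by 0.23 ± 0.05, from 162, 157 and 150 CPM to 179 and 186 CPM (adjusted p = 0.002). ATP5A1, the alpha subunit of F1, was higher by 0.12 ± 0.05 (adjusted p = 0.0459) and lost its call without any of 6 libraries (0.0783 to 0.302).

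In complex I 5 of 37 subunits rose (13.5%) and 2 fell (5.41%) with knockdown, beside 19.9% and 19% of all genes. The median was 0.05. With library totals 3 rose and 3 fell, beside 15.4% and 23.7% of all genes. NDUFS7 rose by 0.39 ± 0.08, from 32.2, 30.5 and 29.7 CPM to 41.9 and 38.5 CPM (edgeR, adjusted p = 0.00105). Of the 5, NDUFS7 alone kept its call with any library left out. Without knockdown replicate 2 the calls of NDUFB5, NDUFA6, NDUFS1 and NDUFB9 were lost (0.0508, 0.116, 0.259 and 0.0986). The assembly factor NDUFAF1 was higher by 0.24 ± 0.07 (adjusted p = 0.0136) and lost its call without the same library (0.137).

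**Figure D2:**
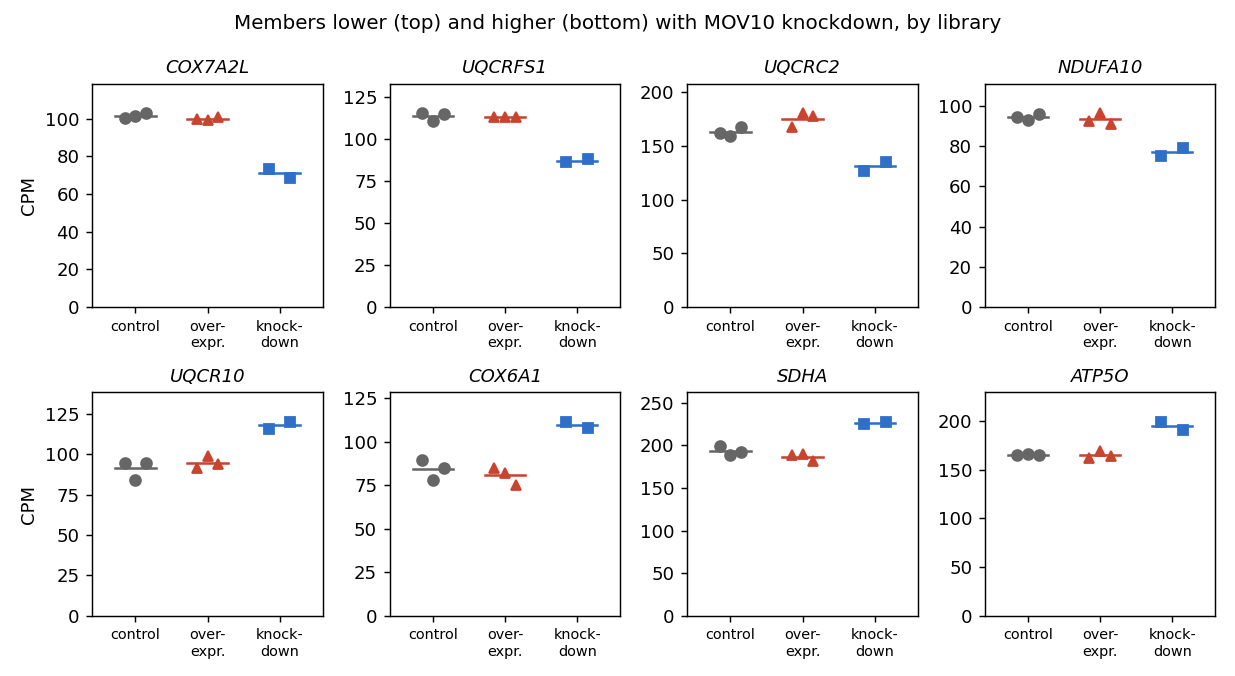
Levels in CPM (linear axis from 0) of 4 members lower (top) and 4 higher (bottom) after MOV10 knockdown, 1 point per library and a line at the group mean. COX7A2L stands at 68.5 to 73.6 CPM with knockdown against 99.2 CPM or more elsewhere, and ATP5O at 190 to 200 CPM against 169 CPM or less.

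Of the 91 members, 6 (6.59%) were called in both comparisons with control, beside 3138 of 15254 genes (20.6%). NDUFS7 and NDUFB5 were higher in both, and NDUFA8 was lower in both, beside 1114 and 880 of the 15254 genes. NDUFA8 had a log2 fold change of -0.20 ± 0.07 with knockdown (edgeR, adjusted p = 0.037), a call lost without knockdown replicate 2 (0.105), knockdown replicate 3 (0.192), control replicate 1 (0.159) or control replicate 3 (0.0538). NDUFB9, NDUFAF4 and ATP5F1 were lower with overexpression and higher with knockdown, as were 594 of the 15254 genes. ATP5F1 stood at 147, 140 and 143 CPM with overexpression, below every control library, and above every control library with knockdown. NDUFB9 had -0.15 ± 0.06 and 0.22 ± 0.07 (adjusted p = 0.0485 and 0.0135), and NDUFAF4 had -0.17 ± 0.06 and 0.17 ± 0.06 (0.0262 and 0.0452). Without control replicate 1 the overexpression calls of ATP5F1, NDUFB9 and NDUFAF4 were lost (0.199, 0.352 and 0.117), and without knockdown replicate 2 the knockdown calls of NDUFB9 and NDUFAF4 were lost (0.0986 and 0.32).

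**Figure D3:**
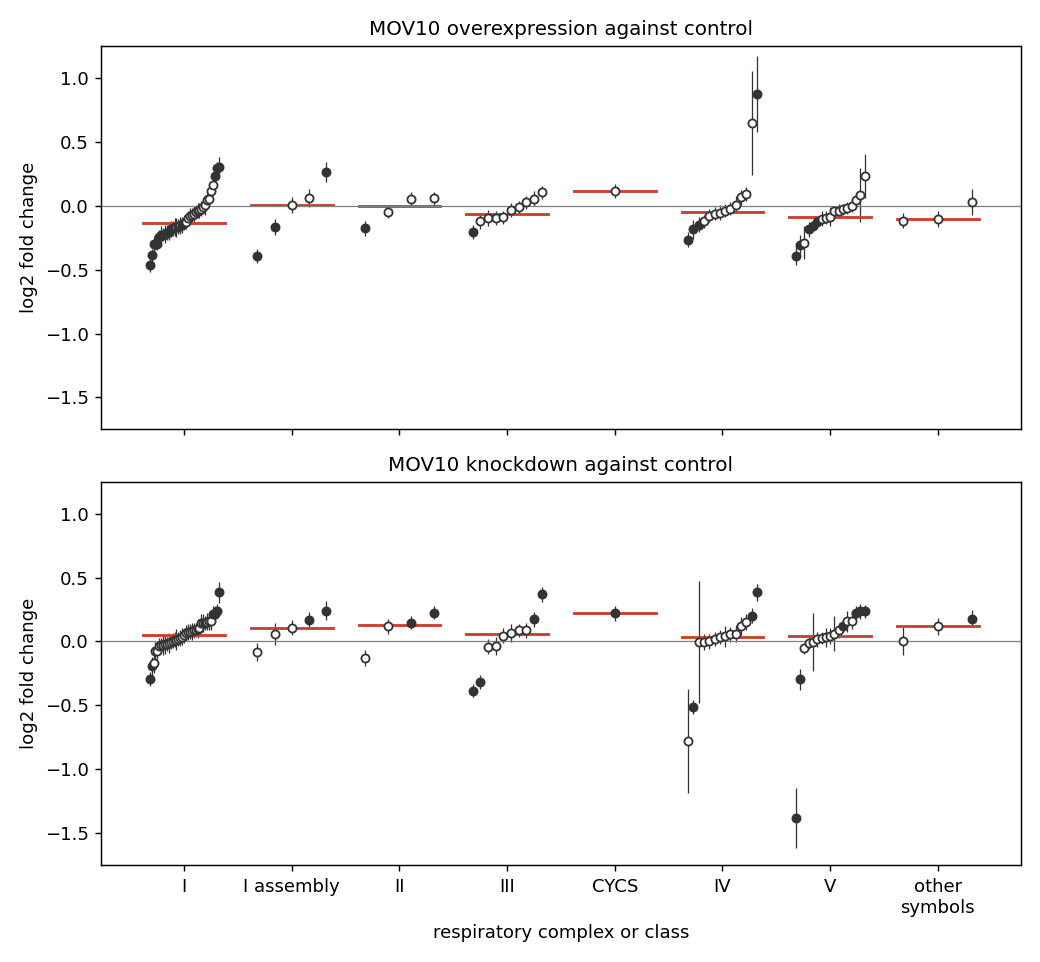
Log2 fold change of each of the 91 members tested, by respiratory complex or class, for overexpression against control (top) and knockdown against control (bottom). Bars are standard errors, filled points passed the test at an adjusted p under 0.05, and horizontal lines are class medians, -0.14 and 0.05 for complex I.

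The direct contrast of overexpression with knockdown tests the difference between the treatments without the control libraries as a common reference. In edgeR's test 46 of 91 members were lower with overexpression than with knockdown and 9 were higher, or 50.5% and 9.89%, beside 28.1% and 29.3% of all genes tested. The median was -0.16 over the members and 0.02 over all genes. With library totals the split was 25 lower and 12 higher, while all genes had 19.6% lower and 37.4% higher and a median of 0.10. Without overexpression replicate 1 the count of lower members was 35, beside 25.2% of all genes. Without knockdown replicate 2, which left 1 knockdown library, the median was -0.13 over the members and 0.02 over all genes. Complex I had 20 lower and 2 higher of 37, complex III 5 and 2 of 10, complex IV 5 and 2 of 14, and complex V 10 and 2 of 17.

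Among the lower members of this contrast were NDUFB2 with -0.54 ± 0.06 (adjusted p = 4.03e-07), ATP5SL with -0.50 ± 0.06 (5.62e-07) and COX6A1 with -0.44 ± 0.06 (8.45e-06). NDUFB2 and ATP5SL had fallen with overexpression against control, while COX6A1 had risen with knockdown. ATP5F1, with -0.35 ± 0.05 (1.05e-05), combined both. Higher members were COX7A2L with 0.49 ± 0.06 (3.6e-07), UQCRC2 with 0.42 ± 0.06 (2.32e-06) and UQCRFS1 with 0.38 ± 0.05 (5.66e-06). In these 3 the overexpression libraries lay near control and the knockdown libraries below. NDUFS4, an accessory subunit of the matrix arm, had 37.2, 41.9 and 39.3 CPM with overexpression and 30.4 and 32.5 CPM with knockdown. It was higher by 0.33 ± 0.08 (edgeR, adjusted p = 0.000954), although neither comparison with control passed (0.0521 and 0.0949).

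Summed over its subunits, each complex gives a level per library that is dominated by its abundant members. The sum for complex I was 2990, 2884 and 2951 CPM in control, 2703, 2796 and 2589 CPM with overexpression and 3066 and 3002 CPM with knockdown, and the groups did not overlap on this TMM scale. Scaled to library totals alone, they did: control was 2972, 2875 and 2953, overexpression 2765, 2877 and 2650, and knockdown 2946 and 2917. On that scale the means relative to control were 0.942 with overexpression and 0.999 with knockdown. On the TMM scale they were 0.916 and 1.03. For complex V the ratios were 0.932 and 1.04, and its overexpression libraries, at 2296, 2357 and 2241 CPM, lay below all control libraries, at 2491, 2440 and 2463 CPM. With library totals the complex V ratios were 0.959 and 1.00, and overexpression stayed below control, at 2425 or less against 2432 or more. Complex II stood at 0.987 and 1.10 of control, with 537 and 525 CPM in the knockdown libraries against 472 to 493 CPM in control, and with library totals knockdown still lay above control, at 516 and 510 against at most 491. Complex III, with 0.974 and 0.998, had overlapping groups. Complex IV had 0.943 and 1.03, and both overexpression and knockdown overlapped control. These sums were not tested. Over all 98 symbols the share of the counted reads was 0.911%, 0.878% and 0.900% in control, 0.865%, 0.897% and 0.841% with overexpression and 0.906% and 0.899% with knockdown, so the groups overlapped.

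**Figure D4:**
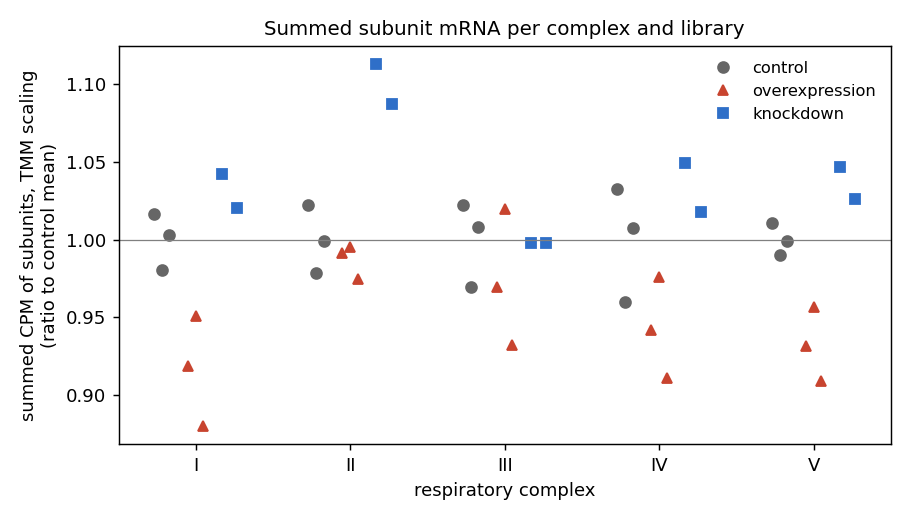
Summed TMM-scaled CPM over the subunits of each complex, as a ratio to the control mean (axis does not start at 0), 1 point per library. The overexpression libraries lie below control in complexes I and V, the knockdown libraries lie highest in complex II, and complex III shows no separation. With library totals the complex I groups overlap.

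The libraries of a group did not shift alike. Over the 87 members with at least 10 CPM in control, the median log2 ratio to the control mean was -0.09, -0.02 and -0.12 in overexpression replicates 1, 2 and 3, while over all such genes it was -0.03 in each. It was 0.08 and 0.05 in knockdown replicates 2 and 3, beside 0.03 and 0.01 over all genes. Overexpression replicate 3 was thus the lowest. Without it 26 of the members fell and 6 rose with overexpression, beside 25.5% and 26% of all genes. The members' median log2 fold change was then -0.05, against -0.08 with all libraries.

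The members are short transcripts. Their median length was 958 nt beside 2775 nt over all genes tested, and their median GC content 49.9% beside 49.5%. The 28 members that fell with overexpression had a median length of 742 nt and a GC content of 53.1%, and all genes that fell had a GC content of 52.5%. The 7 that fell with knockdown had a median length of 2615 nt. With offsets for GC content and length in the fit, 46 members fell and 5 rose with overexpression, beside 34.3% and 23.9% of all genes. The part of length and base composition in the results was not tested.

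Words of 8 bases in 3' UTRs that earlier results of these data had tied to lower mRNA with knockdown were looked up in the members. The words are AGCAAACA, GTCTGTTA and TGGGTCTT, read on the transcript strand, and none overlaps another here. They were chosen on these data, so the counts support nothing beyond a description. Each gene was read in its longest 3' UTR in GENCODE. Of 89 members with a 3' UTR of at least 50 nt, 6 held a word (6.74%, beside 11.3% of all genes), and of the 7 members lower with knockdown 2 did, UQCRC2 and ATP5E (28.6%, beside 20.4% of all genes lower with knockdown). Of the 18 members higher with knockdown that have such a UTR, 0 did, beside 6.71% of all genes higher with knockdown. The reads of ATP5E may be shared with ATP5EP2, and its word starts at base 2283 of a 3' UTR of 3378 nt. The sites of UQCRC2 and ATP5E are shown with the word in capitals.

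UQCRC2, chromosome 16: cagcccagagcAGCAAACAcatgaaagtca
ATP5E, chromosome 20: gattactattgAGCAAACAaatctttacag

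COX7A2L, UQCRFS1 and NDUFA10, which fell with knockdown, held none of the 3 words. NDUFS6, SDHC, COX5B and NDUFA9 held a word and did not pass the test with knockdown.

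Genes around the respiratory chain were read from the same edgeR fit by list. Of 35 assembly factors outside the symbol rule, 4 rose and 10 fell with overexpression, and 10 rose and 4 fell with knockdown. ATPAF1, a chaperone of the F1 beta subunit, stood at 181, 186 and 178 CPM in control and at 129, 124 and 123 CPM with overexpression, and it fell by 0.53 ± 0.05 (edgeR, adjusted p = 2.55e-08). BCS1L, which inserts the Rieske protein into complex III, fell by 0.32 ± 0.06 (adjusted p = 8.67e-05). TTC19, which clears Rieske fragments from complex III, rose by 0.33 ± 0.05 with overexpression and by 0.29 ± 0.05 with knockdown (1.52e-05 and 0.0002). With knockdown LRPPRC, which stabilises mitochondrial mRNAs, rose by 0.26 ± 0.05 (0.000421). C6orf57, the complex II assembly factor SDHAF4, fell by 0.74 ± 0.10 with knockdown, from 12.1, 12.6 and 11.6 CPM to 7.45 and 7.02 CPM (7.84e-06), and rose by 0.28 ± 0.08 with overexpression (0.00725). COX17, a copper chaperone of complex IV, fell by 0.34 ± 0.08 with overexpression and by 0.37 ± 0.09 with knockdown (0.00151 and 0.00204).

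Of 19 regulators of mitochondrial biogenesis, 3 rose and 4 fell with overexpression, with a median log2 fold change of -0.10, and with knockdown 8 rose and the other 11 did not pass, with a median of 0.18. PPARGC1A, the coactivator PGC-1 alpha, stood at 19.6, 20.5 and 19.6 CPM in control and at 27.6, 28.7 and 28.6 CPM with overexpression, and it rose by 0.51 ± 0.07 (edgeR, adjusted p = 4.46e-06). Its relative PPARGC1B rose by 0.36 ± 0.06 with overexpression (adjusted p = 9.53e-05). PPRC1, a further member of that family, fell by 0.30 ± 0.06 with overexpression (0.0002), as did POLRMT, the mitochondrial RNA polymerase, by 0.32 ± 0.07 (0.000347). With knockdown POLG, the mitochondrial DNA polymerase, rose by 0.36 ± 0.05 (2.55e-05), and C10orf2, the helicase Twinkle, by 0.40 ± 0.07 (7.42e-05).

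In the citric acid cycle and pyruvate dehydrogenase list of 18 genes, 3 rose and 7 fell with overexpression, and 5 rose and 3 fell with knockdown. CS, citrate synthase, stood at 330, 330 and 336 CPM in control and at 286, 290 and 250 CPM with overexpression, and it fell by 0.27 ± 0.05 (edgeR, adjusted p = 0.000237). IDH3B fell by 0.42 ± 0.05 with overexpression (adjusted p = 2.1e-06). SUCLG2, the GTP-forming succinyl-CoA ligase subunit, rose by 0.65 ± 0.07 with overexpression and by 0.46 ± 0.08 with knockdown (3.34e-07 and 9.28e-05).

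Coenzyme Q, the carrier from complexes I and II to complex III, has 13 synthesis genes in the list. Of these 3 rose and 2 fell with overexpression, and 2 rose and 4 fell with knockdown. COQ2, which joins the ring to its isoprenoid tail, stood at 19.2, 16.9 and 16 CPM in control and at 10.1 and 10.5 CPM with knockdown, and it fell by 0.77 ± 0.10 (edgeR, adjusted p = 5.41e-06). PDSS2, a subunit of the enzyme that makes the tail, fell by 0.52 ± 0.08 with knockdown (adjusted p = 3.47e-05).

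Nuclear-encoded subunits enter the mitochondrion through the TOM and TIM translocases. Of 23 genes for these, 2 rose and 11 fell with overexpression, with a median of -0.16, and 1 rose and 4 fell with knockdown, with a median of 0.01. TOMM40, the channel of the outer membrane, stood at 138, 126 and 129 CPM in control and at 84.8, 91.2 and 75.5 CPM with overexpression, and it fell by 0.64 ± 0.06 (edgeR, adjusted p = 7.42e-08). TIMM10, a chaperone of the intermembrane space, fell by 0.73 ± 0.07 with overexpression and by 0.35 ± 0.07 with knockdown (4.19e-08 and 0.000572). The shares of lower calls in these lists with overexpression ran from 15.4% to 47.8%, beside 24% of all genes, and those of higher calls from 8.70% to 23.1%, beside 25.1%. With knockdown the lists' shares of higher calls ran from 4.35% in TOM and TIM to 42.1% in the regulators of biogenesis, beside 19.9% of all genes, and those of lower calls from 0 to 30.8%, beside 19%.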

How the data were processed

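The deposited values are raw counts of reads per gene symbol, made by the authors and not normalized. Per the labels' protocols, Trizol RNA and a stranded TruSeq kit were used. The submitters' processing notes name the build hg19, the aligner TopHat2 2.0.8, the counter HTSeq 0.5.3p9, and also SAMtools 0.1.18, CASAVA 1.8.2, Trimmomatic 0.22 and edgeR. How reads with several alignments were treated, and which strand setting was used, is not given in the sources used here.

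Groups and replicate numbers came from sample titles. Genes passing filterByExpr (minimum count 10, minimum total 15), 15254 of 23368, were tested in edgeR 4.0.16 (R 4.3.3) with TMM factors (0.961 to 1.03) and the two-sided quasi-likelihood test, in 1 fit of all 8 libraries. P-values were adjusted by Benjamini-Hochberg over all genes and called under 0.05. The common biological coefficient of variation was 4.49%. Standard errors come from this fit. No 2 libraries of a group agreed within sampling noise (chi-square per gene 1.88 to 8.01). The script was tested on simulated data. Transcript lengths and GC came from GENCODE transcripts that match RefSeq (all transcripts of a gene where none does), on another build than the counts, matched for 78 members by name and 20 by an older symbol.

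Members, lists and motifs were chosen with earlier results of these data known. Named were MOV10, up to 3 members per class and direction with the smallest adjusted p in each comparison, alternative forms of a subunit, members called at a log2 change of at least 0.5 or in both comparisons with control, the extremes of control level, and up to 2 genes per list and direction. Other subunits of complexes I, II and V are named to complete a count, and 1 gene that the rule names is not reported here. Alternatives were size factors, library totals, other count filters, DESeq2 1.42.0, limma 3.58.1 (voom), only the compared groups, an adjusted p of 0.01, the replicate block, GC and length offsets (mgcv 1.9.3), thinning and leaving out each library.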

Additional observations from a re-analysis of the deposited data

How the results depend on the processing

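Of the 114 member calls over the 3 comparisons, 61 held under all 20 alternatives (19 of 33 with overexpression, 13 of 26 with knockdown and 29 of 55 in the direct contrast), and none turned its direction. Scaling by library totals gave 10 members higher with overexpression in place of 5, 12 higher with knockdown in place of 19, and 25 lower in the direct contrast in place of 46. At an adjusted p of 0.01, 16 of 91 members were lower with overexpression, 9 higher with knockdown and 29 lower in the direct contrast. The same shares over all genes tested were 17.8%, 13.4% and 22%. Offsets for GC content and length gave 46 lower with overexpression, and 48 together with the replicate block, beside 34.3% and 34.8% of all genes. The cause of these shifts was not tested. Over the fits that left out 1 library, lower members with overexpression numbered 16 to 32 and higher ones 4 to 6, higher members with knockdown 7 to 28 and lower ones 6 to 8, and lower members in the direct contrast 27 to 47 and higher ones 7 to 10. Where knockdown is left with 1 library, that library is assumed to vary like the other groups. Same-numbered libraries did not deviate together (correlations of -0.321 to 0.211), so the numbers are not taken to pair the libraries. The replicate block gave 5 higher and 24 lower with overexpression, 15 and 6 with knockdown, and 8 and 42 in the direct contrast. Over all genes it gave 23.9% higher and 22.6% lower, 17.1% and 16.7%, and 27.1% and 25.8%. Depth limits chiefly COX6B2, ATP5E, ATP5L2 and NDUFA4L2, with at most 135 reads in a library.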
